A study of Mus musculus with 6 samples.

Results

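The ErbB receptors and their ligands were followed as 10 genes: the receptors Egfr, Erbb2, Erbb3 and Erbb4, and the ligands Nrg1, Tgfa, Hbegf, Btc, Ereg and Areg. They were read by every probe set whose only platform gene symbol is 1 of these names, which gave 20 of the 45101 probe sets of an Affymetrix Mouse Genome 430 2.0 array. Of these genes, 9 had at least 1 such probe set and Areg had 0, so no value is given for Areg. Egfr had 7 probe sets, Tgfa 3, Btc, Erbb3 and Hbegf 2 each, and Nrg1, Erbb2, Erbb4 and Ereg 1 each. The family was taken up with earlier results of these arrays known, in which the Nrg1 probe set was among the largest differences of mutant mice with normal pressure from controls; its members were thus chosen in part by that measured difference. Values of that comparison, of any comparison that contains it, and of Nrg1 throughout are therefore described and not tested.

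The arrays hold RNA of whole lung from 6 FVB/N mice, 1 array per mouse and 2 mice in each of 3 groups. All were female and carried the SM22-rtTA transgene, a doxycycline-dependent activator under the promoter of the smooth muscle gene Tagln, and were fed doxycycline from 4 weeks of age for 9 weeks until death at 13 weeks. Control mice carried nothing more. The others were heterozygous for it and for TetO7-BMPR2-R899X, a doxycycline-driven truncated receptor for bone morphogenetic proteins, and fell into a group whose right ventricular systolic pressure (RVSP), a measure of pulmonary hypertension, was near normal, R899X normal RVSP, and another in which it was high, R899X high RVSP. These are called normal-RVSP and high-RVSP mice, and R899X mice together. The transgene acts in smooth muscle while the RNA came from all cells of the right lung, so fewer cells of a type and less RNA per cell cannot be told apart. The lung markers Sftpc (surfactant protein C) and Tagln lay between 26212 and 40876 and between 4115 and 5622 on the 6 arrays. As a check of the labels, Xist read 4646 to 7705 in its brightest probe set in these female mice. None of 3 probe sets of Bmpr2, the gene of the transgene, separated R899X mice from controls. Of the 3, 1 read 436 on control 1, 657 on R899X normal RVSP 1 and 1928 to 2170 on the others. Whether these probe sets read the transgene was not examined, so they cannot check the genotype labels. Median intensity per array was 128 to 141. Control 1 and R899X normal RVSP 1 had the highest ratios of 3' to 5' signal for beta-actin, a measure of RNA integrity. These were 1.89 and 1.64 against 1.27 to 1.45 on the other 4 arrays. The same ratio for Gapdh was not highest on these arrays, at 0.97 and 0.70 against 0.72 to 1.03 on the other 4. Control 1 and R899X normal RVSP 1 also had the largest mean distances to the other arrays.

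ErbB receptors are tyrosine kinases that pair up at the cell surface when a ligand with an EGF-like domain binds. Egfr binds Tgfa, Hbegf, Btc, Ereg and Areg, while Erbb3 and Erbb4 bind neuregulins such as Nrg1. Erbb2 binds no ligand itself and acts as the partner of the others, and Erbb3 has little kinase activity of its own. Most ligands are made as membrane proteins and released by metalloproteases. In lung, these receptors are best known in epithelium, where they take part in growth and repair and, through neuregulin, in surfactant production of the fetal lung. Nrg1 is also known from heart and nerve, where it acts on cardiomyocytes and Schwann cells.

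Of the genes with a probe set that placed all 4 R899X arrays on the same side of both controls (Nrg1, Egfr, Erbb3, Tgfa and Btc), a RefSeq promoter was at hand for Egfr, Tgfa and Btc, while Nrg1 and Erbb3 are named only. The sequences below, of mouse build GRCm38.p6, run 5' to 3' on the strand of the gene from 250 bases before its annotated start to 50 bases after it, and are shown because they are the control regions of members with that pattern. Egfr lies at chr11:16751953-16752252 on the plus strand, Tgfa at chr6:86194972-86195271 on the plus strand and Btc at chr5:91402945-91403244 on the minus strand. Capitals mark matches, on either strand, to the GC box GGGCGG, the GC-rich element GGCGCC and the TATA box TATAAA.
Egfr: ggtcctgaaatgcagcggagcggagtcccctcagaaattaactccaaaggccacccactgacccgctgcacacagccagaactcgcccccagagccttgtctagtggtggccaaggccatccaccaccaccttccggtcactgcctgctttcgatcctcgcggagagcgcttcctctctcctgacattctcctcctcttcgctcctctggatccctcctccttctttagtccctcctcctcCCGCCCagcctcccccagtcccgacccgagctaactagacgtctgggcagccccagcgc
Tgfa: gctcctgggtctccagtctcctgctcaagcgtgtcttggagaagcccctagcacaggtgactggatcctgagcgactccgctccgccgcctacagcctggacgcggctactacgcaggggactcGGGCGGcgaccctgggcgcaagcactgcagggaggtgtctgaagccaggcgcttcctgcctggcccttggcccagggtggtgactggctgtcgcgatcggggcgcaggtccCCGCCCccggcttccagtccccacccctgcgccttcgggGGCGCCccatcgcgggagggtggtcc
Btc: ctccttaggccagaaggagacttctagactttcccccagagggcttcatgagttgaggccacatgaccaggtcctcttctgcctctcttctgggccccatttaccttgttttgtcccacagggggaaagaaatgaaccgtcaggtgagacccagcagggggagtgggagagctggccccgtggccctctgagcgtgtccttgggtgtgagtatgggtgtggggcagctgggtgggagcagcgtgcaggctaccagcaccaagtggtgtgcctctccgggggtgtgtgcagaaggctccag

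The Egfr window held 1 GC box, at -9 from the start, and the Tgfa window held 2, at -126 and -15, with 1 GGCGCC at 25. The Btc window held none of these letters, and TATAAA was in none of the 3. No matches in these windows overlapped. Among 32851 mouse promoters of the same length, 35.7% held a GC box, 11.9% a GGCGCC and 13.6% a TATAAA. G and C made up 62.3%, 70.7% and 60.3% of the Egfr, Tgfa and Btc windows, against a median of 52.7% over all promoters. A match describes the letters of the window and not the binding of a factor. Btc is the direct neighbour of Areg, and Areg of Ereg, among the protein-coding genes of chromosome 5.

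Differences are given as log2(intensity + 16), so that dim probe sets are understated, with the standard error after ± from limma fitted to all 6 arrays. Probe sets with a mean below an intensity of 74.9 were not tested. Of the 20, 13 probe sets of 7 genes passed this filter, and Erbb4 and Ereg had none that did. Nrg1, with a mean of 79.8 on this scale, was the member just inside the limit and Egfr 1454313_at, at 66.0, the one just outside. Both Nrg1 values in controls lay under the limit, so Nrg1 passed it through the R899X arrays. Levels of different probe sets are not compared, since brightness depends on the probes.

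**Figure D1:**
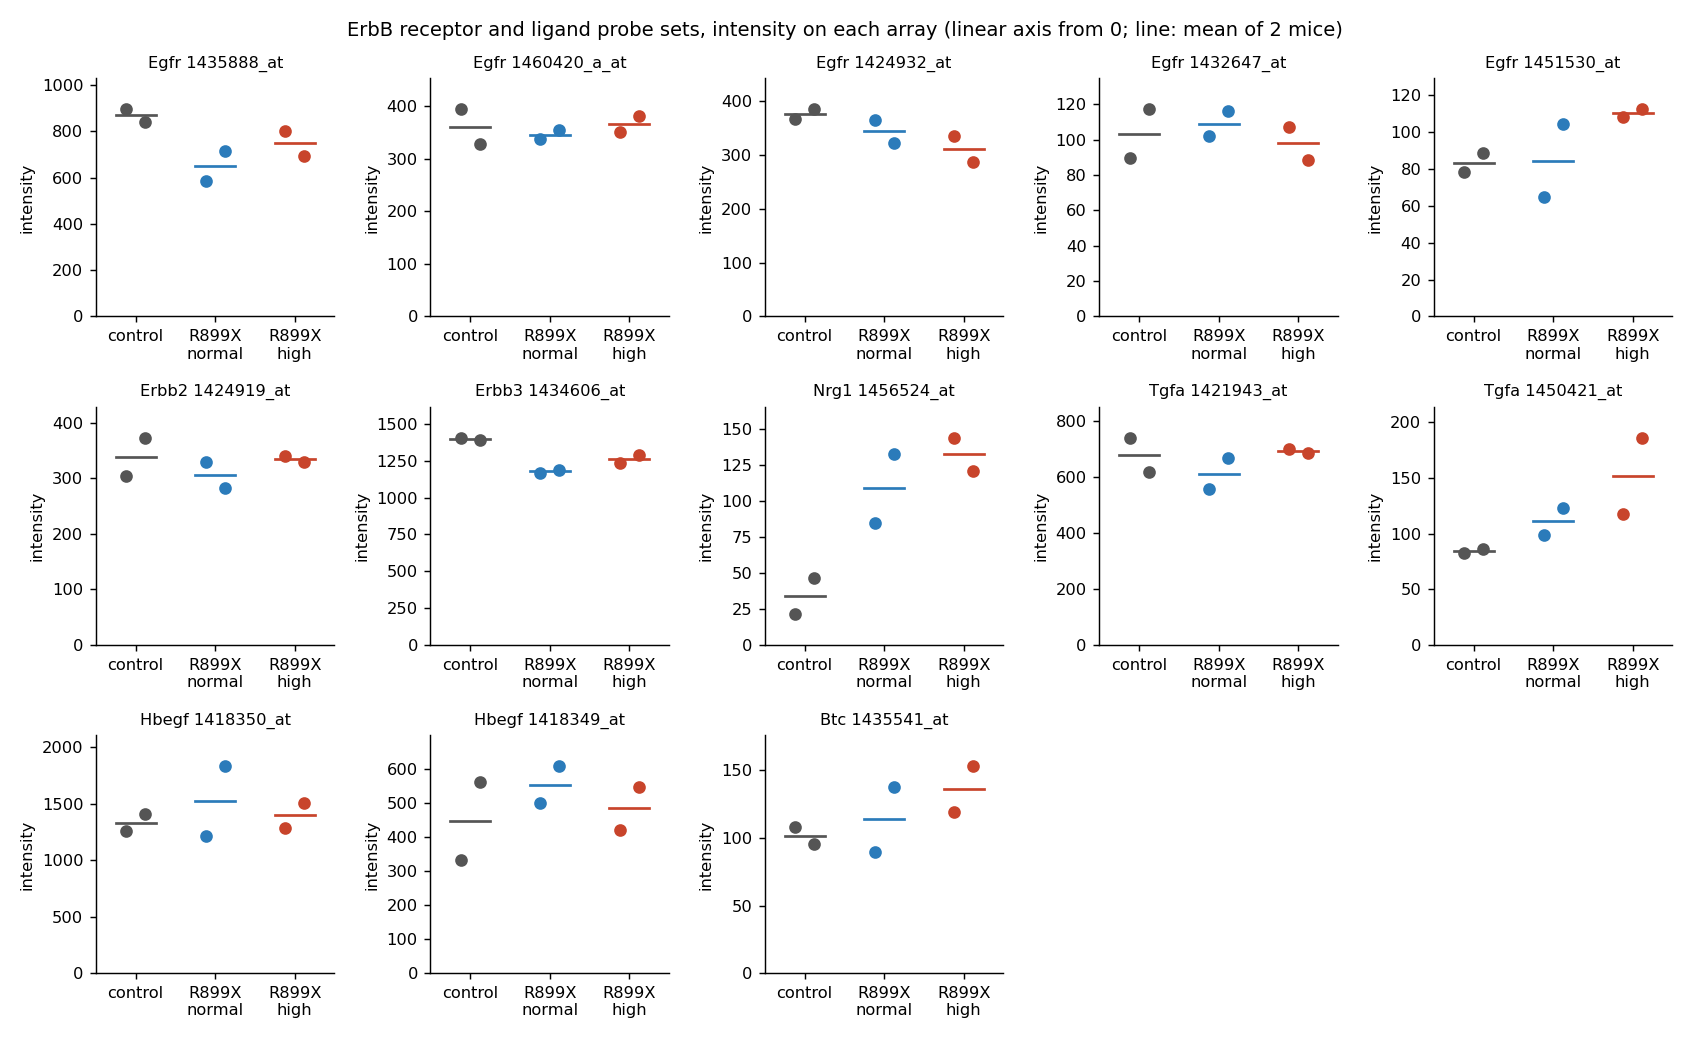
Intensity of each tested probe set (linear axis from 0) on each array, by group, with the mean of 2 mice as a line. Nrg1 lies between 84.9 and 144 on the 4 R899X arrays and at 21.4 and 46.7 on the controls, and Erbb3 lies below both controls on the same 4 arrays.

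Among the receptors, Egfr and Erbb3 each had a probe set that was lower on all 4 R899X arrays than on both controls. The brightest Egfr probe set, 1435888_at, read 895 and 843 in the controls, 585 and 716 with R899X and normal RVSP, and 801 and 696 with R899X and high RVSP. The groups with R899X overlapped with each other and lay below the controls. Its log2 difference from control was -0.41 ± 0.18 for normal-RVSP mice and -0.21 ± 0.18 for high-RVSP mice, the latter with an adjusted p of 0.905 in limma. Without high-RVSP mouse 2 the latter was -0.11, and without high-RVSP mouse 1 it was -0.31.

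The other Egfr probe sets did not share one direction. Egfr 1424932_at read 368 and 385 in controls, 366 and 323 in normal-RVSP mice and 335 and 287 in high-RVSP mice, again below both controls on all 4 arrays, though the first barely so. Its difference of high-RVSP mice from controls was -0.27 ± 0.20 (limma adjusted p = 0.889). Egfr 1460420_a_at, in which the letter a marks probes shared by transcripts of 1 gene, read 394 and 329, then 337 and 355, then 352 and 382, with all groups overlapping. Egfr 1432647_at lay between 88.7 and 117 with all groups overlapping as well. Egfr 1451530_at read 78.1 and 88.4 in controls, 64.4 and 104 in normal-RVSP mice and 108 and 112 in high-RVSP mice, where it was highest, at 0.35 ± 0.30 over control (limma adjusted p = 0.905). Of the 7 Egfr probe sets, 5 had a negative difference between all R899X mice and controls, 1 a positive one and 1 a difference that rounded to 0. Which transcript or part of the gene each probe set reads was not used here.

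Erbb3 1434606_at had the tightest groups among the receptors. It read 1405 and 1394 in controls, 1170 and 1187 in normal-RVSP mice and 1234 and 1290 in high-RVSP mice. The 3 groups did not overlap, with controls highest and normal-RVSP mice lowest. The difference from control was -0.24 ± 0.15 for normal-RVSP mice and -0.15 ± 0.15 for high-RVSP mice (limma adjusted p = 0.922), and high-RVSP mice stood 0.10 ± 0.15 above normal-RVSP mice (limma adjusted p = 1). The moderated standard error of limma borrows spread from other probe sets of that brightness. In the ordinary linear model, which uses only the spread of this probe set, the standard error of the difference of high-RVSP mice from controls was 0.03, with an adjusted p of 0.862 over all probe sets. The direction held without any 1 array, with -0.18 to -0.12 for high-RVSP mice compared with controls.

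Erbb2, the receptor without a ligand, showed no separation from control. Its probe set 1424919_at read 304 and 373 in controls, 329 and 283 in normal-RVSP mice, and 341 and 330 in high-RVSP mice. The difference of high-RVSP mice from controls was -0.01 ± 0.21 (limma adjusted p = 0.999). The single Erbb4 probe set lay between 3.95 and 36.7 and the second Erbb3 probe set, 1452482_at, between 3.27 and 28.9, both under the filter, and neither set all R899X arrays apart from the controls.

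Among the ligands, Nrg1 had the largest difference of the family. Its only probe set, 1456524_at, read 21.4 and 46.7 in the controls, 84.9 and 133 in normal-RVSP mice, and 144 and 121 in high-RVSP mice. All 4 R899X arrays lay above both controls, and the groups with R899X overlapped, normal-RVSP mouse 2 reading between the arrays of high-RVSP mice. Mean intensity was 34.1 ± 17.9 (SD, n = 2) in controls, 109 ± 34.0 (SD, n = 2) in normal-RVSP mice and 133 ± 16.8 (SD, n = 2) in high-RVSP mice.

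The log2 difference of Nrg1 from control was 1.34 ± 0.36 for normal-RVSP mice and 1.61 ± 0.36 for high-RVSP mice, which share their controls, and 0.27 ± 0.36 between high- and normal-RVSP mice. With 1 probe set, agreement between probe sets of Nrg1 could not be examined. The controls decided much of the size: without control 1 the differences from control were 0.97 and 1.24 for normal- and high-RVSP mice, and without control 2 they were 1.71 and 1.98. With 1 in place of 16 added before taking logarithms, the differences were 1.71 and 2.02, and with 64 added 0.82 and 1.01. The beta-actin ratio was highest on control 1, where Nrg1 was lowest. With that ratio held in the fit the differences were 1.05 and 1.04, and without control 1 and normal-RVSP mouse 1 they were 1.25 and 1.24. These last values rest on control 2 as the only control. The 1.24 only repeats the value without control 1, since normal-RVSP mouse 1 does not enter it. Both controls had a higher ratio than both high-RVSP arrays, at 1.89 and 1.45 against 1.36 and 1.27. Fits that hold the ratio, here and below, therefore separate it poorly from the group.

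**Figure D2:**
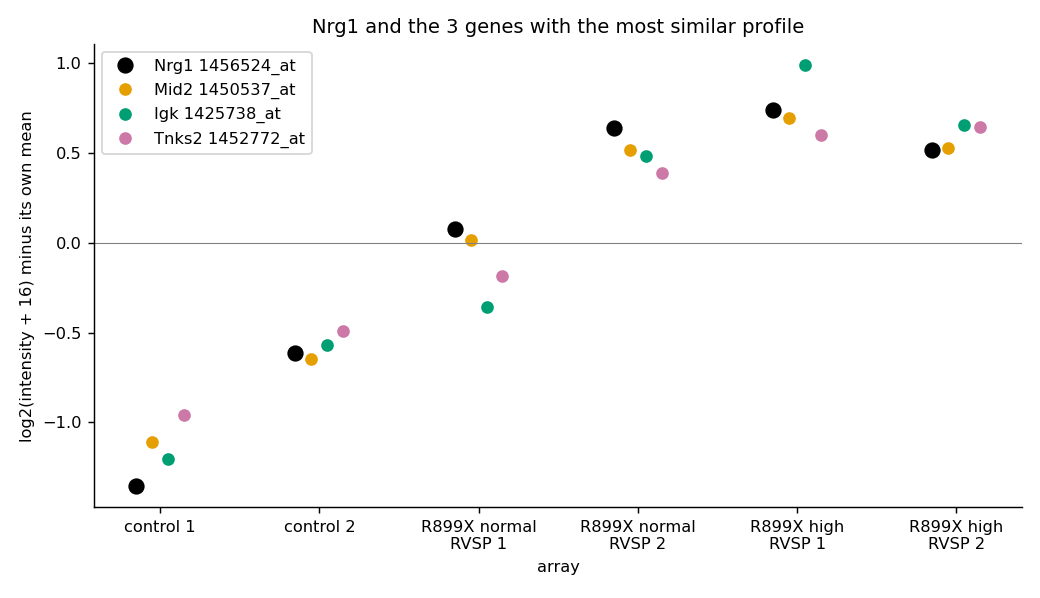
log2(intensity + 16) of Nrg1 and of the 3 genes with the most similar profile, each minus its own mean, on the 6 arrays. All 4 probe sets are lowest on control 1 and lie above their mean on normal-RVSP mouse 2 and on both high-RVSP arrays.

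The genes whose centred log2 profile over the 6 arrays came closest to that of Nrg1 were taken from 22246 candidate probe sets, as a description that rests on 6 arrays. Mid2, a microtubule-associated ubiquitin ligase, was closest with a root mean square difference of 0.117, where Nrg1 itself deviated from its mean by 0.76. Its probe set 1450537_at read 119 and 170 in controls, 278 and 400 in normal-RVSP mice, and 456 and 403 in high-RVSP mice. Mid2 1422216_at read 680 and 724, then 1021 and 839, then 929 and 937, so that both probe sets of Mid2 were higher on the R899X arrays. Igk (an immunoglobulin kappa chain locus of many similar segments) followed at 0.230 and Tnks2 (the poly-ADP-ribose polymerase tankyrase 2) at 0.239. For these 2 genes the other tested probe sets did not share the profile, with differences between all R899X mice and controls of -0.29 for Igk 1452557_a_at and of -0.04 and 0.03 for Tnks2 1428388_at and 1447522_s_at, against 1.33 and 1.09 for the probe sets that resembled Nrg1.

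Values of marker genes for other cells are given beside Nrg1, and 0 of these markers passed limma in any comparison. Alveolar, club, basal and mesothelial, endothelial, macrophage, mast cell and lymphocyte lists were also read, and 0 of their markers passed. Of 5 endothelial markers, Pecam1 was higher on every R899X array than on both controls. The median difference of these 5 between all R899X mice and controls was 0, with 2 above and 3 below 0. The 3 platelet markers (Pf4, Itga2b and Gp9) read higher on every R899X array than on both controls, as did 783 of 12557 tested genes, each with an adjusted p of 0.857 for high-RVSP mice compared with controls in limma. Their summed intensity was 1474 to 1614 in controls, 1774 to 1932 in normal-RVSP mice and 1989 to 2511 in high-RVSP mice. Of the Schwann cell markers only Sox10 passed the filter, at 112 to 163 in controls, 164 to 167 in normal-RVSP mice and 148 to 211 in high-RVSP mice. Smooth muscle markers, 4 of 4 measured, summed to 12331 to 14291 in controls and 15164 to 17283 in normal-RVSP mice. Their sums in high-RVSP mice, 13975 to 14479, overlapped with those of controls. Among these markers, Acta2 and Cnn1 exceeded both controls on every R899X array, while Myh11 and Tagln overlapped with controls in both R899X groups. Between the R899X groups, each of the 4 dropped at high RVSP without overlap, with a median difference of -0.20. Such a drop was seen for 2486 of 12557 tested genes. Summed adipocyte markers, 3 of 4 tested, were 357 to 766 in controls, 701 to 1611 in normal-RVSP mice and 762 to 1155 in high-RVSP mice, lowest on control 1 as Nrg1 was. Ciliated cell markers, 5 of 5 tested, were also lowest on control 1, with sums of 1419 and 2712 in controls, 2798 to 3077 in normal-RVSP mice and 2121 to 2823 in high-RVSP mice. All 5 had a positive difference between all R899X mice and controls, with a median of 0.54. Without control 1 and normal-RVSP mouse 1, which left control 2 as the only control, the median was -0.26 with 2 of 5 above 0. With the beta-actin ratio held in the fit it was 0.28 with 3 of 5 above 0. Cardiac muscle markers, 4 of 5 tested, ran the other way in high-RVSP mice, with sums of 16257 to 19042 in controls, 16293 to 21992 in normal-RVSP mice and 8060 to 15276 in high-RVSP mice. Their median difference of high-RVSP mice from controls was -0.80, and 3 of the 4 lay below both controls, beside 2302 of 12557 tested genes. The part of these cells in the Nrg1 difference was not tested.

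Tgfa, a ligand of Egfr, was read differently by its probe sets. Tgfa 1450421_at read 82.9 and 85.9 in controls, 99.2 and 123 in normal-RVSP mice, and 118 and 186 in high-RVSP mice. All R899X arrays exceeded both controls, with high-RVSP mouse 2 far above the rest. The difference of high-RVSP mice from controls was 0.71 ± 0.30 (unadjusted p = 0.0445 and adjusted p = 0.857 in limma), which was 0.41 without high-RVSP mouse 2 and 1.01 without high-RVSP mouse 1. The brighter Tgfa 1421943_at read 739 and 616, then 555 and 668, then 698 and 684, and its controls spanned the high-RVSP arrays, with a difference of 0.03 ± 0.19 (limma adjusted p = 0.992). Tgfa 1421942_s_at lay between 25.2 and 70.4, under the filter, with all groups overlapping.

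Hbegf, which binds Egfr and Erbb4 and is known as an early response gene, did not separate the groups in either probe set. Hbegf 1418350_at read 1257 and 1409 in controls, 1211 and 1829 in normal-RVSP mice, and 1288 and 1503 in high-RVSP mice. Hbegf 1418349_at read 334 and 562, then 501 and 608, then 421 and 548. The probe sets were lowest on normal-RVSP mouse 1 and control 1, respectively. From controls to high-RVSP mice they differed by 0.06 ± 0.22 and 0.14 ± 0.27 (limma adjusted p = 0.980 and 0.963). When the fit held the beta-actin ratio these became -0.29 and -0.37, and without control 1 and normal-RVSP mouse 1 -0.02 and -0.22.

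Btc, a ligand of Egfr and Erbb4, had 2 dim probe sets. Btc 1435541_at read 108 and 95.7 in controls, 90.1 and 138 in normal-RVSP mice, and 119 and 153 in high-RVSP mice, which lay above the controls by 0.36 ± 0.30 (limma adjusted p = 0.901). Btc 1421161_at, under the filter, read 26.2 and 23.2 in controls, 43.7 and 56.0 in normal-RVSP mice, and 49.3 and 48.4 in high-RVSP mice. All R899X arrays lay above both controls, which held for 1 of the 7 untested probe sets, while 7.52% of tested probe sets were higher and 7.71% lower in this way. Ereg, read by 1 probe set between 4.15 and 68.6, overlapped between all groups.

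**Figure D3:**
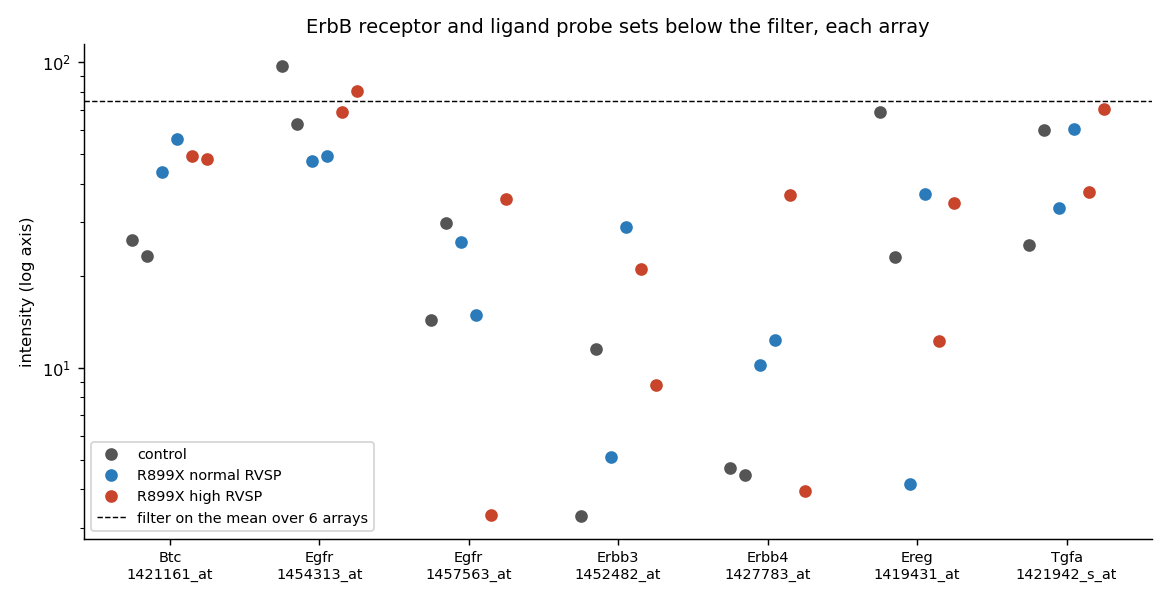
Intensity (log axis) of the 7 probe sets under the filter on each array, coloured by group, with the filter limit as a dashed line. The Btc probe set has both controls, at 23.2 and 26.2, below all 4 R899X arrays.

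**Figure D4:**
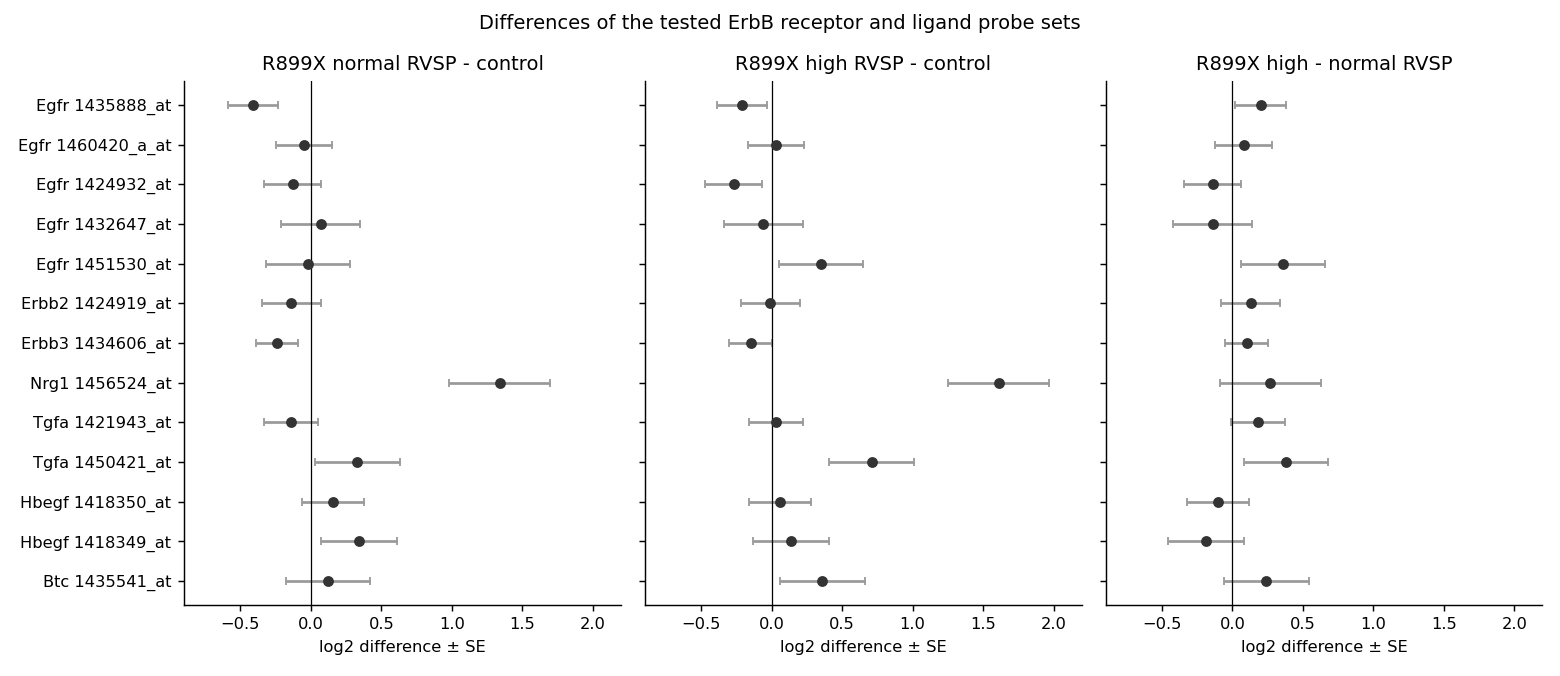
log2 difference of each tested probe set with its standard error from limma, for normal-RVSP mice compared with controls, high-RVSP mice compared with controls, and high-RVSP against normal-RVSP mice. Nrg1 stands at 1.34 and 1.61 against control, while the differences of the other 12 probe sets lie between -0.41 and 0.71.

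Of the 12 probe sets besides Nrg1, 0 passed limma with Benjamini-Hochberg adjustment in high-RVSP mice compared with controls or with normal-RVSP mice, where 0% of the 27022 probe sets passed. Of these 12, only Tgfa 1450421_at had an unadjusted p under 0.05 in high-RVSP mice compared with controls. There 3 of the 12 lay above both controls on both arrays, beside 19.1% of all tested probe sets, and 3 lay below, beside 18.2%. In high-RVSP against normal-RVSP mice, 4 of the 12 were higher without overlap, beside 16.7% of tested probe sets, and 0 were lower, beside 15.5%. They were Egfr 1451530_at, Erbb2, Erbb3 and Tgfa 1421943_at, with differences from 0.10 to 0.36 and adjusted p = 1 in limma; 0 of the 12 had an unadjusted p below 0.05.

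The comparisons that led to the choice of the family are given as a description. For normal-RVSP mice compared with controls, 1 of the 12 was higher without overlap, where 14.4% of tested probe sets were, and 3 were lower, where 15.1% were. For all R899X mice compared with controls, 1 of the 12 was higher on all 4 arrays, Tgfa 1450421_at, where 7.52% of tested probe sets were, and Nrg1 was higher as well. In the same comparison 3 of the 12 were lower, Egfr 1435888_at, Egfr 1424932_at and Erbb3, where 7.71% were. The members are not independent, since 5 of the 12 probe sets read Egfr. Relative to controls, the median log2 difference of the 12 was -0.04 in normal-RVSP mice, 0.03 in high-RVSP mice and 0 in all R899X mice, and it was 0.12 from normal- to high-RVSP mice, beside medians over all tested probe sets of -9e-04, -0.0042, -0.002 and 0.0081.

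The remaining ligands of the family gave no separation from control. Of 5 genes (Egf, Epgn, Nrg2, Nrg3 and Nrg4), 2 had a tested probe set. Egf, the founding ligand of Egfr, read 88.3 and 63.9 in controls, 83.4 and 105 in normal-RVSP mice and 70.3 and 79.5 in high-RVSP mice. Nrg2, a neuregulin, read 93.5 and 181, then 118 and 152, then 217 and 166. Neither passed.

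Genes around the receptors were counted from lists of the pathway, each gene by its brightest tested probe set, and 0 of their tested genes passed in either direction in any comparison. Of the proteases and trafficking proteins that release ligands, 10 of 10 were tested, with 5 above and 5 below 0 in high-RVSP mice compared with controls and a median of -0.03, beside -0.02 over 12557 tested genes. Adam17, the main shedding protease of Egfr ligands, differed by 0.07 ± 0.19, Adam10 by 0.06 ± 0.15 and Adam9 by -0.13 ± 0.17. Dimmer probe sets of the same proteases gave other values. Adam10 1450104_at read 248 and 220 in controls, 307 and 376 in normal-RVSP mice and 453 and 560 in high-RVSP mice, a difference of 1.06 ± 0.22 for the latter (limma adjusted p = 0.801), and Adam10 1450105_at differed by 0.73 ± 0.23 (limma adjusted p = 0.857). Adam17 1421857_at differed by 0.75 ± 0.24 (limma adjusted p = 0.857) and Adam17 1421859_at by 0.47 ± 0.31. Over all 18 tested probe sets of these genes the median was 0.15, with 13 above and 5 below 0, so the brightest probe sets alone do not stand for the list. Of 30 adaptors and kinases below the receptors, 25 were tested, with 11 above and 14 below 0 and a median of -0.04. The adaptor Grb2 differed by 0.24 ± 0.20, Shc1 by 0.04 ± 0.26 and the exchange factor Sos1 by -0.30 ± 0.22. Here too the probe sets of a gene differed, with 0.56 ± 0.23 for Shc1 1422853_at, 0.02 ± 0.22 for Grb2 1418508_a_at and 0.24 ± 0.32 for Sos1 1421884_at. Over all 71 tested probe sets the median was 0.04. Without overlap, 26 of the 71 (36.6%) lay above the controls, beside 19.1% of all tested probe sets. In the same way 13 (18.3%) lay below, beside 18.2%. Of 18 feedback inhibitors and turnover factors, all 18 were tested, with 10 above and 8 below 0 and a median of 0.03. Errfi1, an inhibitor of ErbB kinases, differed by 0.14 ± 0.22, and Lrig1 and Lrig3, membrane proteins of which Lrig1 restrains ErbB receptors, by -0.22 ± 0.22 and -0.58 ± 0.24. The second tested probe set of Errfi1, 1419816_s_at, read 2811 and 2730 in controls, 2189 and 3852 in normal-RVSP mice and 4507 and 4916 in high-RVSP mice, 0.76 ± 0.25 above control (limma adjusted p = 0.857), while those of Lrig1 and Lrig3 differed by -0.20 ± 0.24 and -0.04 ± 0.21. Over all 42 tested probe sets the median was 0.03.

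Genes that ErbB signalling is known to induce had positive differences from control in high-RVSP mice for 7 of 7 tested of 9, with a median of 0.33 and a range of 0.04 to 0.63. Of these 7, 2 lay above control without overlap, beside 1792 of 12557 tested genes, and 0 passed. Egr1, a zinc finger factor, read 5722 and 9786 in controls, 5882 and 12670 in normal-RVSP mice and 11742 and 8008 in high-RVSP mice, and differed by 0.37 ± 0.39. Fos differed by 0.63 ± 0.33 and Etv5, an ETS factor, by 0.37 ± 0.35, with 0.48 ± 0.30 and 0.96 ± 0.44 in its other tested probe sets. Over all 11 tested probe sets of these genes the median was 0.37, with 10 above and 1 below 0. Without overlap, 5 of the 11 (45.5%) lay above the controls, beside 19.1% of all tested probe sets. In the same way 1 (9.09%) lay below, beside 18.2%. Many other signals induce these genes. Their summed intensity was lowest on control 1 and normal-RVSP mouse 1, at 22836 and 24643 against 32944 to 41351 on the other arrays, the same 2 arrays that had the highest beta-actin ratios. Without these arrays, which left control 2 as the only control, the median over genes was -0.01 with 3 of 7 above 0. When the fit held the beta-actin ratio it was -0.18.

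**Figure D5:**
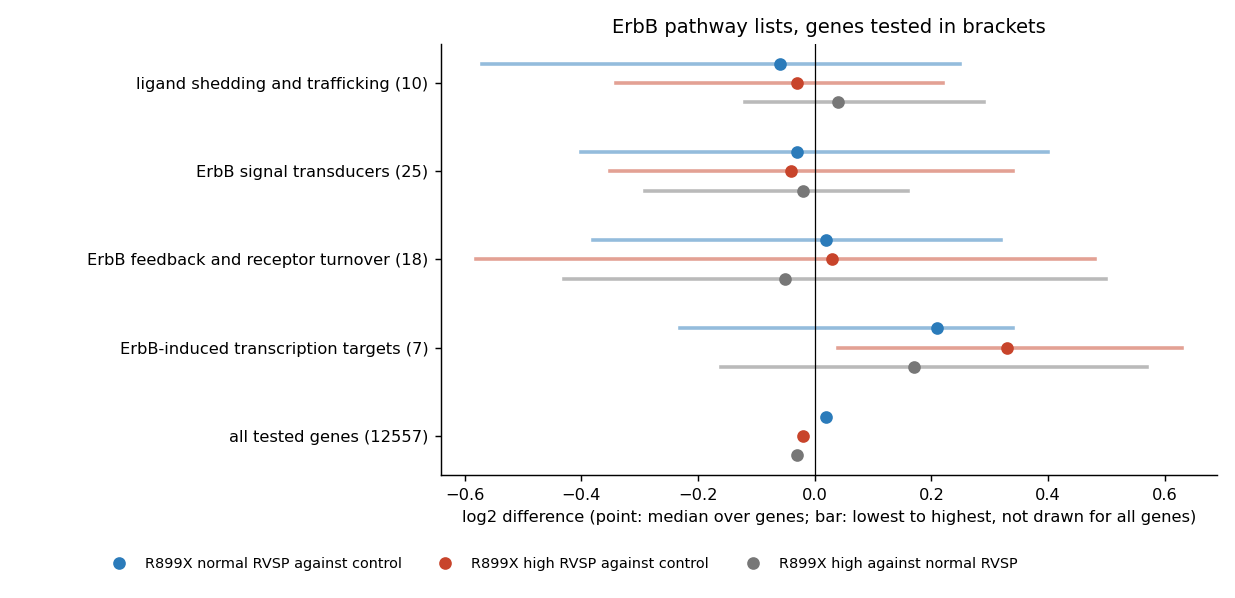
Median log2 difference (points) and range (bars) over the tested genes, each by its brightest probe set, of 4 ErbB pathway lists and the median over all tested genes, in 3 comparisons. The medians of the first 3 lists lie between -0.06 and 0.04, and those of the induced genes between 0.17 and 0.33.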

How the data were processed

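Each array has 1 linear intensity per probe set, as deposited. Per the labels' protocols, mice received heparin, the right lung was flushed with buffered saline, and RNA was purified on columns and labelled by the Affymetrix manual. The summary method of the authors was not given in the sources used here. Trimmed by 2% at each end, intensities averaged 500 on every array, which is a scaling done before deposit. The number of arrays limits the precision.

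Intensities were turned into log2(intensity + 16). Array medians on that scale spanned 0.126, under a limit of 0.2, so nothing more was normalized. The 64 control probe sets and the lower 40% by mean were left out, which left 27022. The platform annotation gave the gene names: 34958 probe sets had 1 symbol, 34754 of them found by identifier in RefSeq (GRCm38.p6), 932 had several and 9211 were not listed. The model in limma 3.58.1 (R 4.3.3) had a mean for each group, used all 6 arrays and an intensity trend, and left 3 residual beside 5.06 prior degrees of freedom. Two-sided p-values were adjusted by Benjamini and Hochberg's method over all tested probe sets, with a threshold of 0.05. The lowest p of an exact permutation test would be 0.333 with 2 arrays per side and 0.0667 with 4 and 2. The labels pair no mice, and replicate numbers follow accession order. A gene in a list was read by its probe set with the highest mean; counts over every tested probe set were added after the data were seen. All members were described, and of each list the first 3 tested genes in written order were named. Members and lists were chosen with earlier results of these data known. The fit was run on simulated data in which all arrays had equal spread and changes were added to high-RVSP arrays only. Those data hold no deviating arrays like control 1 and R899X normal RVSP 1, so they do not cover that case. Alternatives varied the added constant, the filter, the normalization, the variance model and the arrays used.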

Additional observations from a re-analysis of the deposited data

How the results depend on the processing

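No paired analysis was possible because the labels pair no mice across groups. For high-RVSP mice against either other group, 0 of the 12 members besides Nrg1 passed in every setting, including all fits that left out 1 array. Over all probe sets, in place of 0, 1 passed for R899X high RVSP against control with only the arrays of these groups. Leaving out 1 array gave 0 to 4 for R899X normal RVSP against control, 0 to 2 for R899X high RVSP against control, 0 to 43 for R899X high against normal RVSP and 0 to 6 for all R899X against control. Without both control 1 and R899X normal RVSP 1, a setting chosen after array distances were known, the counts were 131, 313, 56 and 228; control and R899X normal RVSP then had 1 array each, assumed to vary like R899X high RVSP. The cause was not tested.

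For high-RVSP mice against either other group, the sign of small differences changed as follows. For R899X high RVSP against control, Egfr 1460420_a_at was 0 with quantile normalization and -0.10 to 0.15 when 1 array was left out, Egfr 1432647_at -0.23 to 0.10, Erbb2 -0.15 to 0.14, Tgfa 1421943_at -0.09 to 0.16, Hbegf 1418350_at -0.05 to 0.17 and Hbegf 1418349_at -0.22 to 0.50. For R899X high against normal RVSP, Btc 1435541_at was -0.03 to 0.51, Hbegf 1418350_at -0.39 to 0.20 and Nrg1 -0.01 to 0.55. Signs also changed in the other comparisons with control. For example, Hbegf 1418349_at was -0.03 to 0.70 for R899X normal RVSP against control and -0.12 to 0.60 for all R899X against control. Without both control 1 and R899X normal RVSP 1, Hbegf gave -0.02 and -0.22 against control and Btc -0.03 between the R899X groups; with the beta-actin ratio, also added later, Hbegf gave -0.29 and -0.37. With all arrays kept, 389 of 396 differences of members under the 8 planned settings kept their sign and side of the threshold or moved by less than the spread between arrays. The same held for 286 of 312 when 1 array was left out and for 88 of 104 under the 2 added settings. Since no member passed in the main fit, the side of the threshold had little room to change. The 2 mice per group limit every value, and no detection calls were used for dim probe sets.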
